A study of Mus musculus with 19 samples.

Results

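Expression of 10 genes of the LIF receptor and STAT3 pathway was followed across 19 mouse embryonic stem cell (mESC) lines. They were the protein coding genes named Lifr, Il6st, Jak1, Jak2, Stat3, Socs3, Pim1, Pim3, Bcl3 and Gbx2, 10 of the 55416 genes in the table of counts, and all 10 passed the filter on low counts in every comparison. The lines descend from individual blastomeres of 3 embryos taken at the 8-cell stage. The embryos came from matings of B6CBAF1/J females with B6CBAF1/J males, so that, through recombination in these hybrid parents, each embryo has a genotype of its own. Embryo 1 gave 5 of them (1.1 to 1.5), embryo 2 gave 7 (2.1 to 2.7), and embryo 3 gave the remaining 7 (3.1 to 3.7). All lines shared the same culture with no further treatment in the labels, on division-blocked human foreskin fibroblasts (HFF-1) in serum replacement medium with added LIF, the MEK inhibitor PD0325901 and the TGFβ inhibitor SB431542. The feeder cells were removed before RNA extraction, and 1 stranded poly-A library was made per line, so that each line is 1 clone and sister lines share the genotype of their embryo. The study also divided the lines into group I, with 11 lines, and group II, with lines 1.2, 1.5, 2.1, 2.2, 2.7, 3.1, 3.2 and 3.3. In the study's principal component analysis line 2.2 was an exception, and a later clustering placed it with group II. These groups are given in the study and not in the sample labels. They were drawn from the expression values of these same libraries, so that p values between groups I and II describe the data and are not independent evidence.

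LIF is the cytokine that keeps mESCs self-renewing in culture. It binds LIFR, which pairs with the signal-transducing chain encoded by Il6st, and the kinases JAK1 and JAK2 bound to these chains then phosphorylate the transcription factor STAT3. STAT3 switches on its targets in the nucleus, among them Socs3, whose product inhibits the kinases and so closes a feedback loop. All values here are RNA levels, which say nothing of how much STAT3 was phosphorylated.

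The total count per line was between 33846569 and 48740941, with a median of 41942274. The 8 mESC markers examined were detected in every line, with a summed level between 2914 and 5504 CPM (the count scaled to a fixed library total), and the summed level of 6 primitive endoderm markers was between 8.30 and 18.0 CPM. The summed level of 10 fibroblast markers was between 399 and 807 CPM in group I and between 213 and 575 CPM in group II, and none of the 10 was at 0 in any line. Of 7 trophectoderm markers, summed to between 85.0 and 384 CPM, 1 was at 0 in at least 1 line. In a few lines the genes of a whole chromosome were shifted together against sister lines, by a median log2 of 0.43 on chromosome 8 in line 2.2, 0.36 on chromosome 8 in line 3.1, 0.37 on chromosome 13 in line 3.2 and -0.45 on chromosome 14 in line 3.6, and on chromosome 6 by 0.30, -0.22 and -0.37 in lines 3.4, 3.5 and 3.7. Of these chromosomes, only number 13 carries one of the 10 genes, Il6st. The next largest shift, of 0.20 on chromosome 1 in line 2.6, is on the chromosome of Gbx2, but the 61 neighbours of Gbx2 within 10 Mb had a median shift of 0.01 in that line and Gbx2 itself one of -0.22.

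All parts of the pathway were transcribed in every line. Divided by the summed exon length of each gene, the mean level was 42.6 ± 6.28 CPM per kilobase for Pim3 (SD, n = 19 lines), 39.5 ± 4.62 for Pim1 and 28.4 ± 3.91 for Socs3. On this scale these target genes, for a pair of serine/threonine kinases and for the feedback inhibitor, stood above all other members. The divisor covers the exons of all annotated transcripts of a gene, and the order depends on it. In CPM alone, Pim1 averaged 139 and Il6st 124, above Pim3 at 113, Socs3 at 101 and Stat3 at 97.3. A middle class held the transcription factor Stat3 at 9.64 ± 1.13 CPM per kilobase, the homeobox gene Gbx2 at 8.38 ± 3.09, the receptor chain Il6st at 7.97 ± 1.50, the NF-κB cofactor Bcl3 at 6.93 ± 2.01 and the ligand-binding receptor Lifr at 6.71 ± 1.37. The kinases came last, with 5.19 ± 0.754 CPM per kilobase for Jak1 and 1.22 ± 0.346 for Jak2. Among neighbours in this order, the ranges were apart only between Socs3 and Stat3 and between Jak1 and Jak2, where all 19 lines kept the order. The remaining neighbours overlapped, with Pim3 above Pim1 in 13 lines and Bcl3 above Lifr in 10, so that their order is not settled by these data.

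The median spread of the 10 genes was near that of other genes, which were not matched to them for level. Their median coefficient of variation over the 19 lines was 16.8%, against 17.8% for 12718 protein coding genes averaging 1 CPM or more. Among sister lines Pim1 varied least, with a standard deviation of 0.12 on the log2 scale, and Gbx2 most, with 0.46, where the median of all those genes was 0.23.

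**Figure D1:**
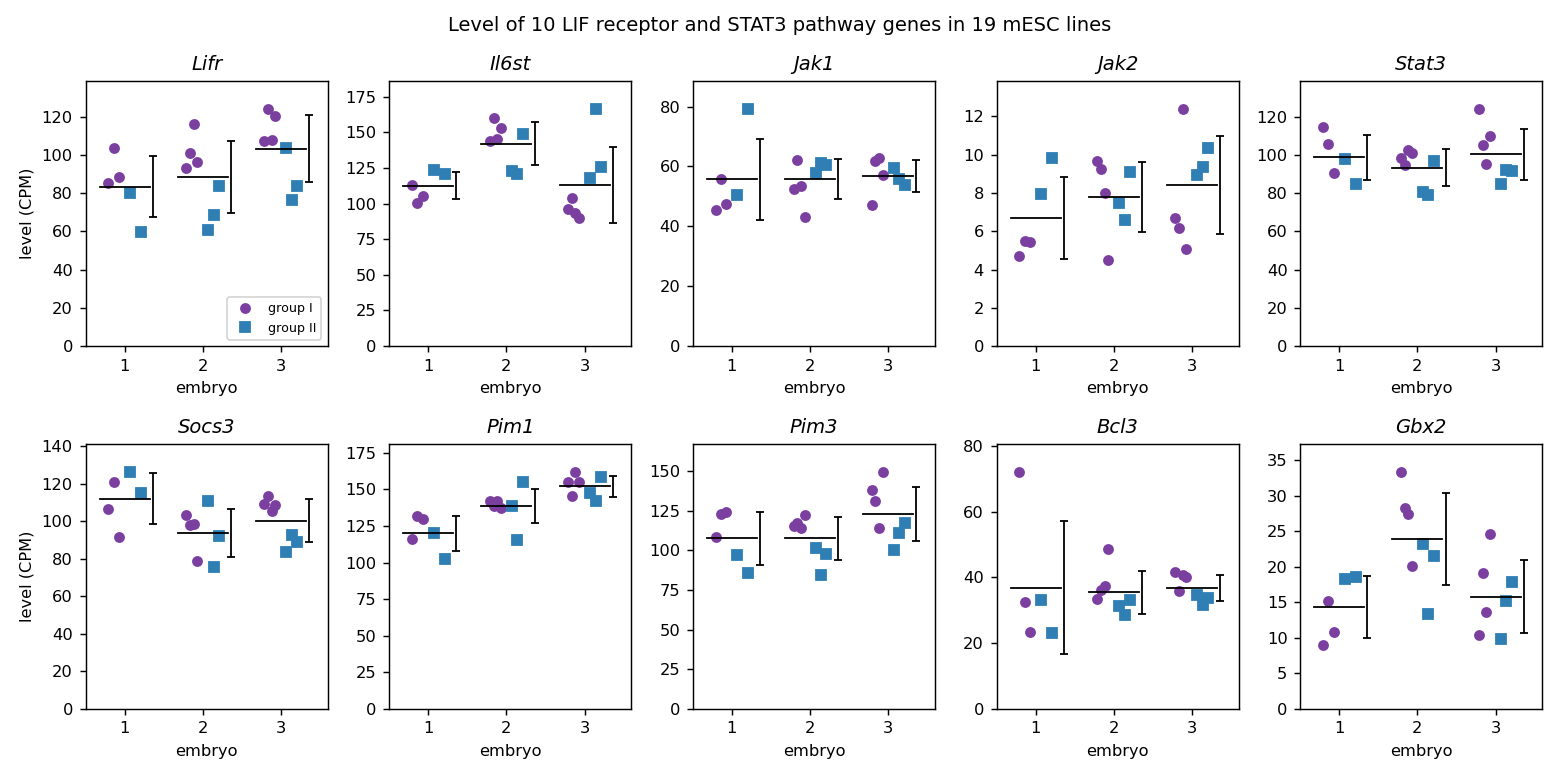
Level of each of the 10 genes (CPM, linear axis from 0) in the 19 lines by embryo, with group I lines as circles and group II lines as squares. Black lines are embryo means and error bars the SD over the lines of an embryo. Lifr circles lie above the squares in each embryo, Pim1 is higher in embryo 3 (142 to 162 CPM) than in embryo 1 (102 to 132 CPM), and single lines stand out for Bcl3 (72.0 CPM in line 1.1) and Jak1 (79.0 CPM in line 1.5).

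Between embryos, no member was called differentially expressed, which required an adjusted p under 0.05 in edgeR's quasi-likelihood test and a fold change over 1.5. The count was 0 of 10 between embryos 2 and 1, where 4.35% of all tested genes were called, 0 between embryos 3 and 1 (background 5.45%) and 0 between embryos 3 and 2 (background 5.63%). At the adjusted p alone, with no fold threshold, 0, 1 and 0 members passed, beside 5.95%, 8.19% and 8.25% of all genes. At an unadjusted p under 0.05 the numbers were 4, 1 and 2 of 10. The share of all genes at this unadjusted threshold is not given, here or in the comparisons below. No excess among the members is read from such counts. DESeq2 called 1 member, Gbx2, between embryos 2 and 1, and 0 in the other pairs of embryos. The median log2 fold change of the 10 genes was 0.04, 0.09 and 0.10 in these comparisons, and that of all tested genes was -0.01, -0.01 and 0.00.

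Of the receptor genes, Il6st encodes the chain shared by the receptors of the IL-6 family. It stood at 113, 123, 101, 106 and 121 CPM in lines 1.1 to 1.5. In embryo 2 its lowest, median and highest levels were 121, 145 and 160 CPM, and in embryo 3 they were 90.0, 104 and 166 CPM. Most lines of embryo 2 were thus higher than those of embryo 1, but the ranges overlapped, and in embryo 3 line 3.2 alone stood above the range of embryo 2. The log2 fold change was 0.34 (SE 0.13) between embryos 2 and 1 and -0.33 (SE 0.11) between embryos 3 and 2, with adjusted p of 0.129 and 0.0807 in edgeR.

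Line 3.2 was also the line in which chromosome 13 was shifted as a whole, and the part of that shift in the level of Il6st was not tested. Il6st lies on chromosome 13 (GRCm39, 112600604 to 112646620, + strand), and its level in line 3.2 was 0.68 higher on the log2 scale than the mean of the sister lines. The 45 measured genes within 10 Mb of it were shifted by a median of 0.47 in the same line, with 93.3% of them above the sister lines. In the other 18 lines this median lay between -0.17 and 0.08. Without line 3.2 the log2 fold change of Il6st between embryos 3 and 2 was -0.44, with an adjusted p of 0.00346 in edgeR, short of the 1.5-fold threshold. Without line 3.2, Il6st also passed the adjusted p between embryos 2 and 1, where its log2 fold change was 0.33 and its adjusted p 0.0425.

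**Figure D2:**
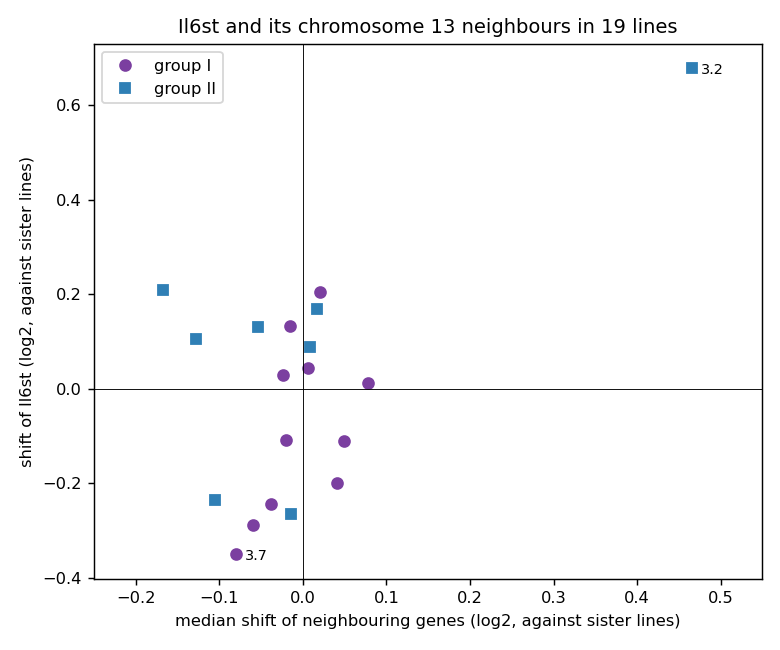
Shift of Il6st (vertical axis) against the median shift of its 45 neighbours on chromosome 13 (horizontal axis), both as log2 difference from the sister lines, with 1 point per line. Line 3.2 stands alone at 0.47 for the neighbours and 0.68 for Il6st, while the other 18 lines lie between -0.17 and 0.08 for the neighbours.

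Lifr encodes the chain that binds LIF (chromosome 15, 7120095 to 7226970, + strand). Its levels in embryos 1, 2 and 3 were 83.5 ± 16.0 CPM (SD, n = 5), 88.5 ± 19.0 (n = 7) and 103 ± 17.6 (n = 7), and their ranges overlapped. The kinase genes Jak1 and Jak2 and the STAT3 gene overlapped between embryos as well, with Jak1 between 43.0 and 79.0 CPM, Jak2 between 4.49 and 12.4 CPM and Stat3 between 79.2 and 124 CPM over all lines. The unadjusted p of Lifr, Jak1, Jak2 and Stat3 was 0.0635 or more in each pair of embryos. Lifr passed the adjusted p between embryos 3 and 1 in 1 of 29 alternatives, at 0.0311 in edgeR. Leaving out single lines gave it 0.126 or more there.

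Among the targets, Pim1 followed the embryo most closely. This gene for a survival kinase stood at 120 ± 11.8 CPM in embryo 1 (SD, n = 5), 139 ± 11.8 in embryo 2 (n = 7) and 152 ± 7.36 in embryo 3 (n = 7). All 7 lines of embryo 3, at 142 to 162 CPM, were above all 5 lines of embryo 1, at 102 to 132 CPM, and such a separation of these embryos, in either direction, was found for 4.74% of all tested genes. The log2 fold change between embryos 3 and 1 was 0.34 (SE 0.07), with an adjusted p of 0.00566 in edgeR, a 1.27-fold difference that is below the fold threshold. It was the only member past the adjusted p alone in that comparison, where 8.19% of all genes were. Between embryos 2 and 1 the log2 fold change of Pim1 was 0.21 (SE 0.07) and did not pass (adjusted p = 0.102, edgeR), but without line 2.2 it was 0.25 with an adjusted p of 0.0309.

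Gbx2, a target of LIF and STAT3 that can hold mESCs undifferentiated when overexpressed, was the most variable member. It stood at 8.96, 18.2, 15.2, 10.8 and 18.6 CPM in lines 1.1 to 1.5. The lowest, median and highest levels were 13.3, 23.2 and 33.3 CPM in embryo 2 and 9.78, 15.1 and 24.6 CPM in embryo 3. Embryo 2 held the highest lines, yet line 2.2 was below 3 lines of embryo 1. Its log2 fold change was 0.73 (SE 0.24) between embryos 2 and 1 and -0.60 (SE 0.22) between embryos 3 and 2, both larger than 1.5-fold, with adjusted p of 0.0817 and 0.0986 in edgeR. Both comparisons were called when line 2.2 was left out, with log2 fold changes of 0.84 and -0.70 and adjusted p of 0.0344 and 0.0453. The second was called without line 3.7 too, at -0.73 and an adjusted p of 0.0485.

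Socs3 was slightly lower in embryo 2, at 93.9 ± 12.7 CPM (SD, n = 7), than in embryo 1, at 112 ± 13.6 (n = 5), with embryo 3 between them at 100 ± 11.6 (n = 7). The ranges overlapped, and the log2 fold change between embryos 2 and 1 was -0.26 (SE 0.10) with an adjusted p of 0.165 in edgeR. Pim3 and Bcl3, at 84.5 to 149 and 23.1 to 72.0 CPM over all lines, had unadjusted p of 0.0743 or more in each pair of embryos. Pim3 passed the adjusted p between embryos 3 and 2 in 1 of 29 alternatives, at 0.0454 in edgeR. The highest Bcl3 value came from line 1.1, and the other 4 lines of embryo 1 stood between 23.1 and 33.1 CPM.

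Between groups I and II, fitted with the embryo as a block, again 0 of 10 members were called, where 11.9% of all tested genes were. At the adjusted p alone 3 of 10 passed, Lifr, Stat3 and Pim3, all higher in group I, while 25.7% of all genes passed and 12.7% passed with higher levels in group I. At an unadjusted p under 0.05 there were 4 of 10. DESeq2 also called 0, and at the adjusted p alone it gave the same 3 genes and Bcl3. The median log2 fold change was 0.09 over the 10 genes and 0.00 over all genes.

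Lifr had the largest difference between the groups among the members. Its lowest, median and highest levels were 85.3, 104 and 124 CPM in the 11 lines of group I and 59.6, 78.2 and 104 CPM in the 8 lines of group II. The ranges overlapped over all lines through line 3.1, at 104 CPM, but within each of the 3 embryos every group I line was above every group II line. This held for 1 of the 10 members, against 1.52% of all tested genes. The log2 fold change was 0.45 (SE 0.08, 95% interval 0.28 to 0.61), with an adjusted p of 0.00082 in edgeR, and the corresponding 1.36-fold difference is below the fold threshold. Fitted in each embryo separately the log2 difference was 0.41, 0.52 and 0.40, and these did not differ from each other in the test of the interaction (adjusted p = 0.95, edgeR; unadjusted p = 0.788).

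Pim3, whose kinase is known to help mESCs self-renew, had lowest, median and highest levels of 108, 122 and 149 CPM in group I and of 84.5, 98.7 and 117 CPM in group II. The groups were apart within embryos 1 and 2, and in embryo 3 line 3.6, of group I, fell between lines of group II. The log2 fold change was 0.32 (SE 0.06, 95% interval 0.20 to 0.45), with an adjusted p of 0.000846 in edgeR. The lowest, median and highest levels of Stat3 were 90.5, 103 and 124 CPM for group I lines, against 79.2, 88.1 and 97.9 CPM for group II lines. Its groups were apart within embryo 3 only, and its log2 fold change was 0.24 (SE 0.06, 95% interval 0.11 to 0.37), a 1.18-fold difference with an adjusted p of 0.00941 in edgeR.

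The fibroblast markers differed between the same groups, with 6 of 10 called higher and 0 lower in group I and a median log2 fold change of 0.77. Other marker lists differed as well. Of 8 mESC markers 0 were called, but 4 passed the adjusted p alone, all higher in group I (12.7% of all genes). Of 6 primitive endoderm markers 2 were called higher and 0 lower, and of 7 trophectoderm markers 0 were called (11.9% of all genes). The part of these markers in the differences of the members was not tested. With the fibroblast score of each line as a covariate, the log2 fold change was 0.23 for Lifr, 0.26 for Stat3 and 0.32 for Pim3, with adjusted p of 0.463, 0.39 and 0.279 in edgeR, and 0 of all genes were called. In that fit the estimate of Lifr was smaller than without the covariate. Those of Stat3 and Pim3 stayed close to their values of 0.24 and 0.32. The summed fibroblast markers largely followed the groups. In embryo 1 the lowest group I line was at 515 CPM and the highest group II line at 477. In embryo 2 they were at 447 and 355, but in embryo 3 line 3.4, of group I, was at 399, below line 3.1 at 575. Group and fibroblast level can therefore hardly be told apart in this fit, and its p values do not separate them. Stat3 also missed the adjusted p without lines 3.4, 3.5 and 3.7, with a log2 fold change of 0.18 and an adjusted p of 0.0828.

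The other 7 members did not pass the adjusted p between the groups. Bcl3 came nearest, with a log2 fold change of 0.37 (SE 0.15) and an adjusted p of 0.072 in edgeR, and its group I lines were above those of group II within embryos 2 and 3. It passed without line 1.4, at 0.43 and an adjusted p of 0.0244, whereas without line 1.1, which had the highest Bcl3 level, the log2 fold change was 0.22 with an adjusted p of 0.0815. The receptor chain Il6st and both kinases had negative estimates, with log2 fold changes of -0.16 (SE 0.09) for Il6st, -0.15 (SE 0.09) for Jak1 and -0.31 (SE 0.17) for Jak2, and adjusted p between 0.179 and 0.203 in edgeR. Single lines weighed on all 3. The estimate was -0.083 for Il6st without line 3.2 and -0.081 for Jak1 without line 1.5, and Jak2 passed without line 3.6, at -0.43 and an adjusted p of 0.0445. The targets Socs3, Pim1 and Gbx2 had log2 fold changes of 0.08 (SE 0.08), 0.09 (SE 0.06) and 0.10 (SE 0.19). The 95% intervals of Socs3 (-0.09 to 0.25) and Pim1 (-0.03 to 0.20) both lie within a 1.5-fold difference in either direction. The estimate of Gbx2 was -0.0052 without line 2.2.

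**Figure D3:**
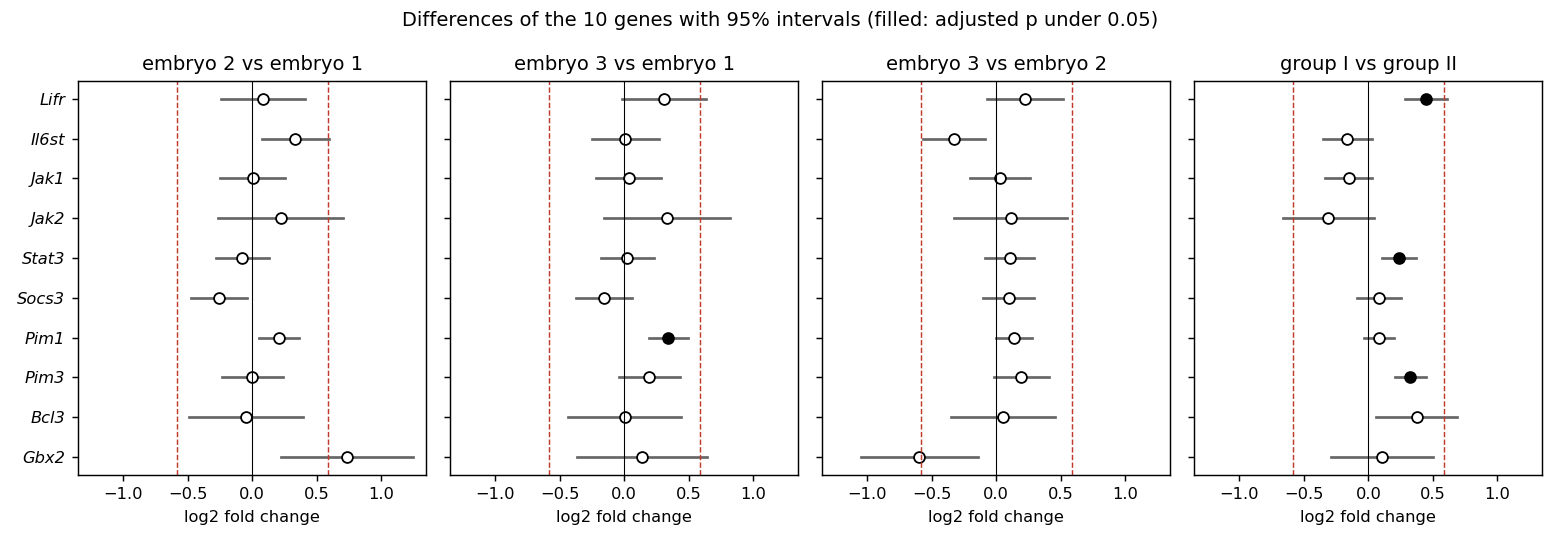
Log2 fold change (horizontal axis) of the 10 genes (rows) in the 3 comparisons of embryos and between groups I and II, with 95% intervals from edgeR. Filled points have an adjusted p under 0.05, and dashed lines mark a 1.5-fold difference. The filled points are Pim1 between embryos 3 and 1 (0.34) and Lifr (0.45), Stat3 (0.24) and Pim3 (0.32) between the groups.

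Within embryos, the lines of groups I and II did not overlap for 5 of 10 members in embryo 1 (32.3% of all genes), for 3 in embryo 2 (18% of all genes) and for 5 in embryo 3 (24.6% of all genes). Lifr and Pim3 were higher and Il6st, Jak2 and Gbx2 lower in the group I lines of embryo 1. In embryo 2 Lifr, Pim3 and Bcl3 were higher, and in embryo 3 Lifr, Stat3, Socs3 and Bcl3 were higher and Il6st was lower. Il6st thus differed in sign between embryos, with a log2 difference of -0.19 in embryo 1, 0.20 in embryo 2 and -0.50 in embryo 3. Whether the group difference differed between embryos was tested for all genes, and 0 of 10 members passed, where 0.0393% of all genes did. At an unadjusted p under 0.05 there were 3, Il6st (adjusted p = 0.161 in edgeR), Gbx2 (adjusted p = 0.519) and Socs3 (adjusted p = 0.557). DESeq2 called 1, Il6st, with an adjusted p of 0.0123, and in this test it called more of all genes than edgeR did. Without line 3.2, whose chromosome 13 was shifted, the difference of Il6st in embryo 3 was -0.34 and the adjusted p of the interaction 0.258 in edgeR.

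Socs3 is commonly read as the transcript that reports STAT3 activity, and its level was compared with each of the other 9 members over the 19 lines, after removal of embryo means. Over all 19 lines the strongest relation was with Gbx2, with a Pearson r of 0.62 (permutation p = 0.00828, adjusted over 9 pairs 0.0745) and a Spearman rho of 0.62 (permutation p = 0.00912, adjusted 0.0821). It did not pass the correction, and without lines 2.2 and 1.4, the farthest from the median of Socs3, r was 0.48 (permutation p = 0.0619, adjusted 0.279). Without these lines the relation with Il6st, at -0.26 over all lines, was the strongest, with an r of -0.56 (permutation p = 0.0311, adjusted 0.279). For Socs3 with Gbx2, r was 0.79 and 0.39 within embryos 2 and 3 (embryo 1, with 5 lines, has too few). Within groups I and II the r with Gbx2 was 0.53 and 0.75. Over all lines the other 8 members had adjusted permutation p of 0.555 or more for r and 0.548 or more for rho. With Stat3 itself r was 0.38 and rho 0.39 (unadjusted permutation p = 0.123 and 0.122), and with Lifr r was 0.19 and rho 0.22 (permutation p = 0.475 and 0.403). These pooled values hide a difference between embryos. Within embryos 2 and 3, r was 0.08 and 0.82 with Stat3 and 0.01 and 0.68 with Lifr, over 7 lines each.

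Of the 45 pairs of members, 27 had a positive correlation of embryo-centred levels over the 19 lines, and r ranged from -0.58 between Jak2 and Pim3 to 0.72 between Stat3 and Pim3. Lifr had an r of 0.72 with Pim3 and 0.69 with Stat3, the same 3 genes that passed the adjusted p between the groups. These values come from the same libraries as the group comparison and are given as a description. Measured likewise among 12717 other protein coding genes, the closest to Lifr were Ftsj3 (r = 0.93), Etaa1 (0.93) and Pus10 (0.92), and the closest to Stat3 were Top3b (0.92), Lama1 (0.92) and Ric8a (0.92). Lower values were reached for Gbx2, with Pcdhgc3 (0.83), Trib1 (0.82) and Mn1 (0.81), and for Socs3, with En2 (0.73), Chpf (0.71) and Chpf2 (0.70).

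STAT3 dimers bind a palindrome, TTCCNGGAA in its strict form and TTCNNNGAA in its loose form, which includes the strict one and reads the same on both strands. The window from 250 bases before to 50 bases after the start of the transcript that GENCODE M39 marks as canonical was searched for both in each member. For some genes, Socs3 among them, this start lies inside the gene's outer limits. The strict form was in 0 of the 10 windows and in 1.15% of 21757 windows of all genes, and the loose form was in 2 of the 10, Socs3 and Jak2, and in 8.82% of all windows. Both windows are shown for these matches, in GRCm39, on the strand of the gene and with the match in capitals. Socs3 lies at chr11:117860074-117860373 on the - strand, with the match TTCTTAGAA at position -223 from the start. Jak2 lies at chr19:29228427-29228726 on the + strand, with the match TTCGCAGAA at -138. A match, or the absence of one, describes the letters in these windows and no more. Sequence beyond the window edges was not searched, for Socs3 or any other member.
Socs3: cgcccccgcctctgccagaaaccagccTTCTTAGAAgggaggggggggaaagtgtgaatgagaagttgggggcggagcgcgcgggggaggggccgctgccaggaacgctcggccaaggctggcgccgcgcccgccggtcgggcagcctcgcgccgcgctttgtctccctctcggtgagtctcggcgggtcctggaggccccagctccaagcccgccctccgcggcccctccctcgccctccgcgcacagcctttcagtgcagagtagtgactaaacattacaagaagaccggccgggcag
Jak2: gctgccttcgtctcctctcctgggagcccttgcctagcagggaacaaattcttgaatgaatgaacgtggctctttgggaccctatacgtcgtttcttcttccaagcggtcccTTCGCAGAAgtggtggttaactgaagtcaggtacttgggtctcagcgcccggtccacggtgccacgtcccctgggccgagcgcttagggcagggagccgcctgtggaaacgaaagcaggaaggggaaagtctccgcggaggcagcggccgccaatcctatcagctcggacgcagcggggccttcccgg
Over these lines Socs3 was between 75.6 and 126 CPM and Jak2 between 4.49 and 12.4 CPM. The embryo-centred r of the 2 genes was 0.16 (permutation p = 0.519, adjusted over 9 pairs 0.584), with 0.67 within embryo 2 and -0.55 within embryo 3.

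Beyond the 10 members, 54 genes of the pathway were examined, listed as ligands, receptors, kinases and STATs, inhibitors, adaptors and other targets. Of these, 51 were tested between embryos and 52 between the groups. Between embryos 2 and 1, 5 were called higher and 0 lower (background 4.35% of all genes). Between embryos 3 and 1, 2 were higher and 1 lower (5.45%), and between embryos 3 and 2, 0 were higher and 3 lower (5.63%). Between groups I and II, 7 of 52 were called, 4 of them higher in group I and 3 lower, which is near the 11.9% of all genes.

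The receptors called between embryos 2 and 1 were Cntfr, for the CNTF-binding chain, with a log2 fold change of 0.76 (SE 0.19, adjusted p = 0.0185 in edgeR), and Osmr, for the oncostatin M receptor, with 2.29 (SE 0.53, adjusted p = 0.0109). Osmr was near the limit of detection at 0.0287 to 0.691 CPM over all lines, and Cntfr at 8.01 to 23.4 CPM was also lower in embryo 3 than in embryo 2, with a log2 fold change of -0.80 (SE 0.17, adjusted p = 0.00404). The call of Cntfr between embryos 2 and 1 was lost without line 1.1, 1.3 or 1.4, with an adjusted p of at most 0.0549 over all alternatives. The ligand Osm, for oncostatin M, was lower in embryo 3 than in embryo 2 by a log2 fold change of -1.37 (SE 0.26, adjusted p = 0.00189). Lif itself was transcribed at 13.8 ± 2.16 CPM (SD, n = 19), and its lines were between 10.5 and 18.8 CPM. Of 8 ligands tested between the groups, 0 were called, and at an unadjusted p under 0.05 there were 0 as well in edgeR.

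Markers of other states moved between embryos too, and their part in the differences given here was not tested. Of all tested genes, 4.35% were called between embryos 2 and 1 and 5.45% between embryos 3 and 1. Of the 7 trophectoderm markers, Krt8 and Krt18 were called higher and Eomes lower in embryo 2 relative to embryo 1 (median log2 fold change of the list 1.26). Cdx2, Gata3, Krt8 and Krt18 were called higher in embryo 3 relative to embryo 1 (median 1.81). Their summed level was 85.0 to 191 CPM in embryo 1, 141 to 381 CPM in embryo 2 and 118 to 384 CPM in embryo 3. Of the 8 mESC markers, Zfp42, Dppa5a and Tdgf1 were called lower in the comparison of embryo 2 with embryo 1, and Zfp42 in that of embryo 3 with embryo 1.

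Pramel7, a LIF target that maintains the naive state, had the largest differences between embryos among the targets. Its mean was 1.28 ± 0.981 CPM in embryo 1 (SD, n = 5), 5.08 ± 1.75 in embryo 2 (n = 7) and 9.10 ± 3.13 in embryo 3 (n = 7). The log2 fold change was 1.99 (SE 0.44, adjusted p = 0.00792 in edgeR) between embryos 2 and 1 and 2.83 (SE 0.45, adjusted p = 0.000341) between embryos 3 and 1. The immediate early gene Junb was called in the same comparisons, at 0.76 (SE 0.21) and 0.68 (SE 0.21), with adjusted p of 0.0321 and 0.0433, and Zfp36, whose product speeds mRNA decay, between embryos 2 and 1 at 0.91 (SE 0.25, adjusted p = 0.0322). The calls of Junb and Zfp36 rested on single lines, with 21 of 29 alternatives keeping that of Junb between embryos 2 and 1 (adjusted p up to 0.0954), 15 that of Junb between embryos 3 and 1 (up to 0.338) and 20 that of Zfp36 (up to 0.113). Among others, leaving out line 1.1, 1.2 or 1.5 ended each of these 3 calls. The early response gene Ier3 was lower in embryo 3 than in embryo 1, with a log2 fold change of -1.61 (SE 0.42, adjusted p = 0.0221), but not without line 1.4 (adjusted p up to 0.182 over the alternatives). The kinase gene Pim2 was lower in embryo 3 than in embryo 2, with -1.61 (SE 0.31, adjusted p = 0.00188). These last values set Pim2 apart from Pim1 and Pim3, whose log2 fold changes between embryos 3 and 2 had unadjusted p of 0.0555 and 0.0743.

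Between the groups, 5 of 14 other targets were called, beside 11.9% of all genes and 6 of the 10 fibroblast markers. Higher in group I were Myc, the proto-oncogene, with a log2 fold change of 1.18 (SE 0.23, adjusted p = 0.00139 in edgeR), and Tfcp2l1 and Klf4, transcription factors that act downstream of LIF, with 0.86 (SE 0.14, adjusted p = 0.000499) and 0.68 (SE 0.12, adjusted p = 0.000961). Lower in group I were Ier3, with -0.99 (SE 0.28, adjusted p = 0.0141), and Pim2, with -0.92 (SE 0.16, adjusted p = 0.000713). Tfcp2l1 ranged from 164 to 355 CPM across group I and from 97.3 to 190 CPM across group II, Klf4 from 163 to 323 and 76.9 to 177 CPM, and Myc from 8.96 to 51.6 and 4.24 to 23.0 CPM, so that the ranges of all 3 overlapped. Elsewhere in the pathway Stat5b, a STAT used by other cytokines, was lower in group I, at -0.67 (SE 0.10, adjusted p = 0.000331), and Cish, a SOCS family inhibitor, was higher, at 0.61 (SE 0.21, adjusted p = 0.0414). With the fibroblast score as a covariate, which is hard to tell apart from the groups, 0 of these 7 genes were called, nor was any other gene. Their log2 fold changes in that fit were 0.38 for Myc, 0.32 for Tfcp2l1, 0.47 for Klf4, 0.12 for Cish, -0.49 for Stat5b, -0.48 for Ier3 and -0.53 for Pim2. Klf4 also lost its call without line 1.5, and Cish, called in 11 of 29 alternatives, lost it in turn without each of 12 single lines. Ier3 lost its call in 5 of 29 alternatives, among them without lines 3.4, 3.5 and 3.7 and without the embryo block, with a log2 fold change down to -0.42, and in embryo 1 it was higher in group I, at 0.77. Pim2 lost its call without the embryo block as well. Klf4 was named after its values were seen, as the last of the 5 called targets.

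**Figure D4:**
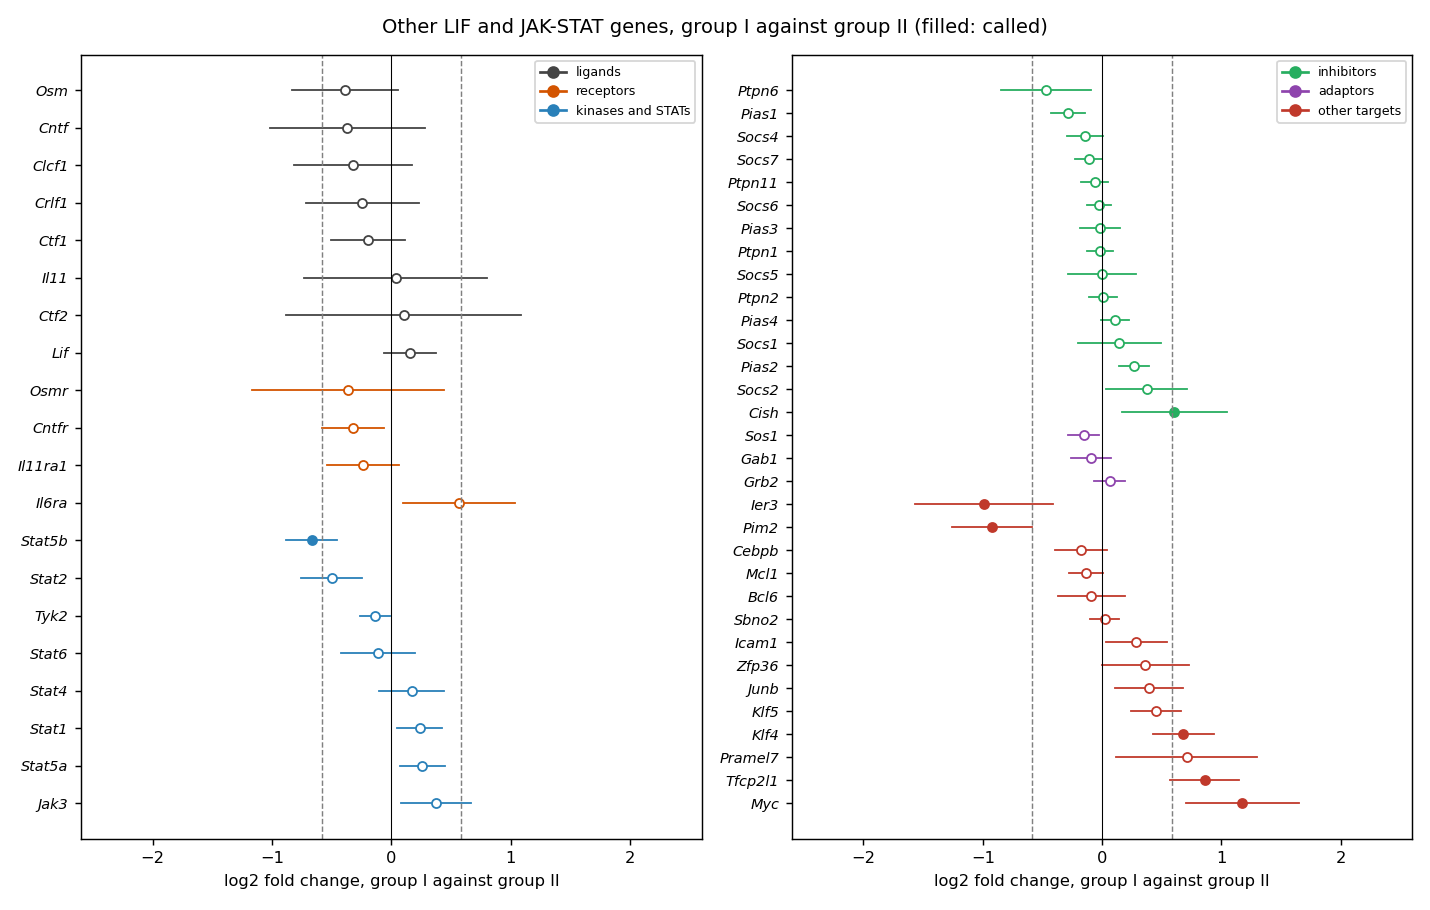
Log2 fold change between groups I and II (horizontal axis, positive where group I was higher) of the 52 tested pathway genes other than the members, by class, with 95% intervals from edgeR. Filled points were called and dashed lines mark a 1.5-fold difference. The filled points are Myc (1.18), Tfcp2l1 (0.86), Klf4 (0.68) and Cish (0.61) to the right and Ier3 (-0.99), Pim2 (-0.92) and Stat5b (-0.67) to the left.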

How the data were processed

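The deposited table holds expected counts per gene for the 19 lines, which the authors made by aligning reads to the mouse genome (GRCm39) with STAR and counting with RSEM 1.3.0. All values are whole numbers, so that rounding must precede the deposit, and 19924 of the 55416 genes are at 0 in every line. Columns were assigned to lines and embryos by the labels, and lines to groups I and II by the study. Of 171 pairs of libraries, 0 were identical. Nothing in the sources says that a line was sampled more than once, so p values measure the spread between clones.

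Counts were filtered with filterByExpr, normalised by TMM and tested by quasi-likelihood in edgeR 4.0.16 (R 4.3.3), in models with embryo alone, embryo and group, or both with their interaction. All p were adjusted by the Benjamini-Hochberg method over all tested genes. CPM were scaled by the TMM factors, and correlations used log2 CPM with a prior count of 2 and 100000 two-sided permutations within embryos. Gene positions, exon lengths and canonical transcript starts came from the annotation GENCODE M39, a later release than the one the authors counted with, in which 54749 gene IDs were found. Reads shared by overlapping or near-identical genes were divided by RSEM.

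Named genes were the 10 members, up to 4 called genes per class of the pathway and the 3 genes closest to each of 4 members. The members, the lists and the tests were chosen with earlier results of these data known. Alternatives were DESeq2 1.42.0, RLE factors, no filter, at least 1 CPM in 5 lines, no fold threshold, no embryo block, the group or a fibroblast score (the average log2 CPM of Dcn, Lum and the collagen genes Col1a1, Col3a1 and Col1a2) as a covariate, the line number as a block, leaving out each line, lines 1.5 and 2.4, or 5 lines with a chromosome-wide shift (2.2, 3.1, 3.2, 3.6 and 3.7). Leaving out lines 3.4, 3.5 and 3.7 was chosen after the data were seen, as was the filter of the group fit, which was widened to the terms of the interaction without a change in any member's call. The fits were tested on simulated counts with known changes.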

Additional observations from a re-analysis of the deposited data

Results flagged for a closer look

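In embryo 1, Bcl3 stood at 72.0 CPM in line 1.1, far above the other 4 lines at 23.1 to 33.1 CPM. Its 177 measured neighbours within 10 Mb were shifted by a median log2 of 0.14 in that line, and Bcl3 itself by 1.37.

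In group II, Jak1 stood at 79.0 CPM in line 1.5, where the other 7 lines of the group were between 50.5 and 61.2 CPM. A line that far from the rest was found in 2 of 92 groups of lines examined, both of them among the 40 groups of the members, and chance alone gives about 1 in 20.

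The difference of Ier3 between groups I and II differed between embryos, with log2 values of 0.77, -1.82 and -1.18 in embryos 1, 2 and 3 and an adjusted p of 0.0495 for the interaction in edgeR. The adjusted p was under 0.05 in 4 of 28 alternatives and ranged from 4.07e-06 to 0.461.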

How the results depend on the processing

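Between groups I and II, Lifr, Pim3 and Stat3 stayed past the adjusted p without any single line. The number of members called was 1 between embryos 2 and 1 with DESeq2 and without the 5 shifted lines, 1 in the interaction with DESeq2 and without a filter, and, with no fold threshold, 1 between embryos 3 and 1 and 3 between the groups. Leaving out single lines gave 0 to 1 in the comparisons of embryo 2 with 1 and of 3 with 2. In the order of the replicate block, the 5 shifted lines left out, lines 3.4, 3.5 and 3.7 left out, the group covariate and no fold threshold, all genes called between embryos 3 and 1 numbered 581, 502, 609, 1896 and 1547. Between embryos 3 and 2 they were 362 without the 5 shifted lines, 610 without lines 3.4, 3.5 and 3.7 and 1810 with the group covariate. Between the groups they were 1558 at a minimum of 1 CPM, 0 with the fibroblast covariate, 1529 with the replicate block, 729 without the 5 lines, 1499 without the embryo block and 5231 with no fold threshold. For the interaction they were 254 with DESeq2, 180 without a filter, 0 to 103 without single lines, and 0 with RLE factors, a minimum of 1 CPM, the fibroblast covariate, the replicate block, or without lines 1.5 and 2.4, the 5 lines or lines 3.4, 3.5 and 3.7. Gbx2 between the groups turned to -0.15 with the fibroblast covariate, -0.20 without the 5 lines, -0.0092 without lines 3.4, 3.5 and 3.7 and, without single lines, -0.0052 to 0.17, Socs3 to -0.051 without the 5 lines, and the correlation of Socs3 with Bcl3 from 0.07 to -0.25 without lines 2.2 and 1.4. Stat3 missed the adjusted p with the replicate block (0.29, adjusted p = 0.0566 in edgeR) and without the 5 lines (0.20, adjusted p = 0.124). Of 1160 values of 40 member results, 67 changed sign, 6 lost and 16 gained the adjusted p. The causes were not tested.

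Line numbers do not pair the lines of different embryos: of 17 same-numbered pairs, 6 correlated above 0.1 (-0.36 to 0.28), and 1 of 19 lines was closest to its own number. With 5 to 7 lines per embryo, small differences in Jak2 and Gbx2, the members with the widest spread, were not detectable.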
